A study of Mus musculus with 21 samples.

Results

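The 10 genes described here encode 6 ligands of the EGF receptor (Areg, Ereg, Hbegf, Tgfa, Btc and Epgn), 3 receptors of the ErbB family (Egfr, Erbb2 and Erbb3) and Lrig1, a membrane protein that restrains ErbB receptors. They were picked by gene symbol from a table of 22050 entries, and all 10 were found there and had values high enough to be tested. The values come from mRNA-seq of 8 samples of sorted mouse epidermal keratinocytes, 4 labelled control and 4 labelled p16. All mice carried K5-rtTA, a doxycycline-dependent activator driven by the keratin 5 promoter of basal epidermal cells, together with tet-GFP, and all were on a mixed FVB, C57Bl and 129sv background. They received doxycycline from 3 weeks of age for 6 months. Control mice were K5-rtTA/tet-GFP, so their keratinocytes expressed GFP alone. The p16 mice were K5-rtTA/tet-GFP/tet-p16 and co-expressed human p16, an inhibitor of the cyclin D-dependent kinases. Each sample held about 80000 GFP+ cells of dorsal skin pooled from 3 mice, after removal of cells bearing CD45, CD31 or CD140a. GFP marks the cells in which the activator works and stands in for p16 in the p16 mice, so the sorted cells were not chosen for p16 itself.

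Ligands of this family are made as membrane-bound precursors and are released by proteases such as ADAM17. A ligand joins receptors into pairs, which switches on their kinases and, among other routes, the Ras-ERK pathway. In the epidermis, EGF receptor signalling is known for driving keratinocyte proliferation and migration and for its role in hair-follicle growth, and keratinocytes feed it by making several of the ligands themselves. ErbB2 binds no ligand and ErbB3 has little kinase activity, so both act in pairs with another receptor.

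Normalized values are reads of a gene after division by the size factor of its sample. Per the methods the libraries read the 3′ ends of transcripts, and they held between 1760953 and 3414362 reads on genes, and 1 read was worth between 0.742 and 1.53 normalized units. In the library labelled p16 replicate 1 the human CDKN2A transgene had 2 reads, within the 1 to 3 reads of the controls, against 9 to 18 reads in the other p16 samples, so results that rest on it are also given without it. The transgene (hsCDKN2A in the table) was not called (log2 fold change 1.73, limma adjusted p = 0.0952), and its groups overlapped. EGFP, the sorting marker, fell, with 5330 ± 809 (SD, n = 4) in controls and 3555 ± 341 (SD, n = 4) in p16 cells, without overlap and at an adjusted p of 0.0167 in limma, and its part in the results was not tested. For replicate 3, control and p16 alike, the labels word the protocol as Illumina RNA sequencing rather than CEL-Seq, a 3′-end method. Whether these libraries are of another type is not known. Krt5 and Krt14, which define basal keratinocytes, were abundant in all samples (normalized values between 8427.2 and 17968.5, with group means between 9690 and 13137). Genes of other cell types were low but present, with mean normalized values in controls and p16 cells of 10.4 and 2.68 for Col1a2 (fibroblasts), 84.6 and 94.1 for Cd74 (Langerhans and myeloid cells) and 3.08 and 5.38 for Pecam1 (endothelial cells). Genes of a list did not all move alike: Col1a1, also of fibroblasts, had 1.775 in controls and 5.675 in p16 cells. Of the tested fibroblast genes 2 were higher and 2 lower, and none was called. Of the tested Langerhans and myeloid genes 3 were higher and 1 lower, and none was called. Of these, Cd207 had means of 0.375 in controls and 3.05 in p16 cells, and Csf1r 1.775 and 1.25. Other genes of the same lists, Lum, Lyz2, Kdr and Cdh5, had no read in any sample. Per the methods the 4 replicates of a group came from 3 independent experiments, and which samples shared an experiment is not given in the sources used here. Samples of 1 experiment may not be independent, and no fit by experiment was made. The p-values set the difference between the groups against the spread between these samples within a group.

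Of the 10 genes, 1 rose in p16 cells, Epgn, and 0 fell, where a call means an adjusted p (Benjamini-Hochberg, limma, 12782 genes) below 0.05. Over all tested genes 3.86% were called, 1.24% higher and 2.61% lower, and no more is read from 1 call among 10 genes. Before adjustment p was below 0.05 for the same gene alone among the 10, and for 15.9% of all tested genes. The median log2 fold change of the 10 genes was -0.05, beside -0.003 for all tested genes. The 10 genes fell into 2 ranges of depth: Epgn, the receptors and Lrig1 had between 91 and 602 reads in every sample, and the other 5 ligands had between 0 and 62. Values of single samples are listed in the order of replicates 1 to 4. Fold changes below are differences of mean log2(normalized value + 1), which understate the change of genes with low values.

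**Figure D1:**
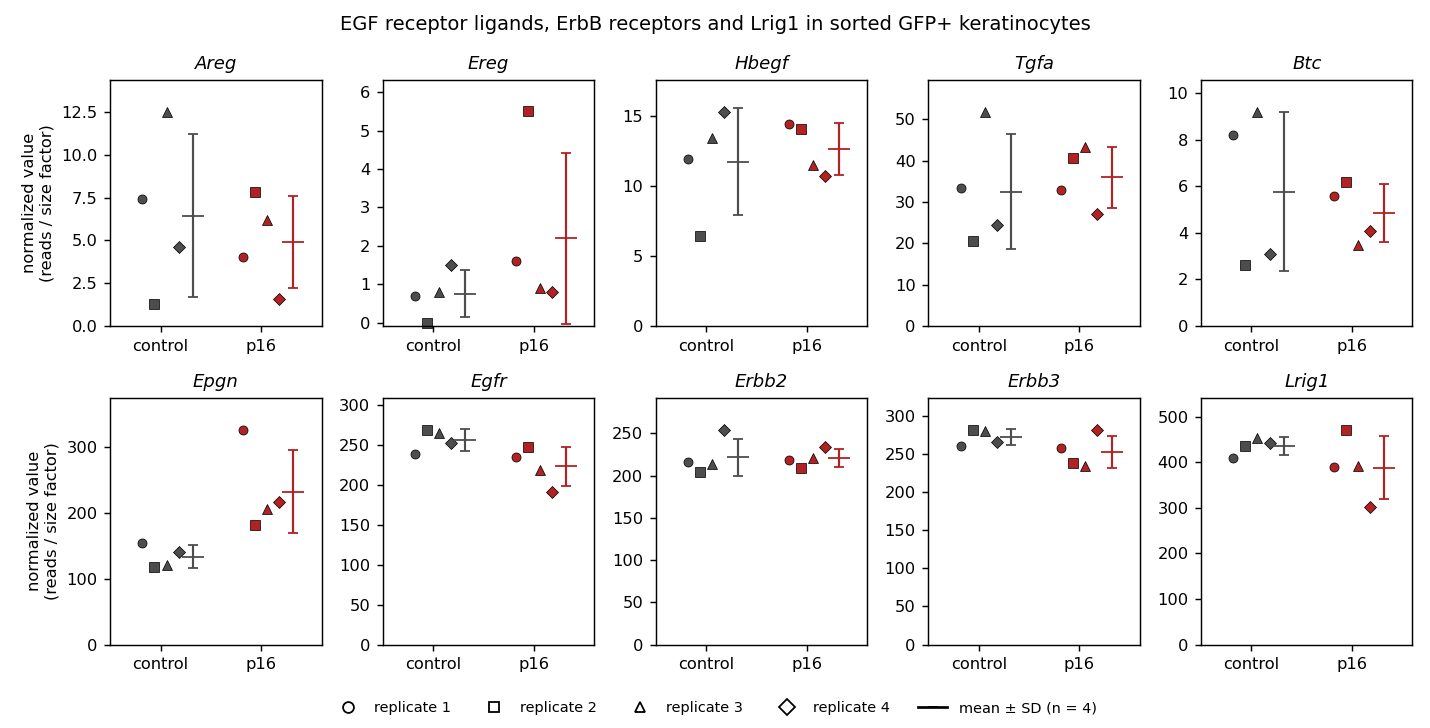
Normalized value (reads divided by the size factor of the sample) of each of the 10 genes in every sample, with controls in grey, p16 samples in red, a symbol for each replicate number and bars for mean ± SD (n = 4). The 2 groups are apart for Epgn, with p16 samples from 181.9 to 324.6 above controls from 116.8 to 153.6, and overlap for the other 9 genes.

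Epgn encodes epigen, a ligand of the EGF receptor that was named for its action as a mitogen of epithelial cells. The gene (ENSMUSG00000035020) lies on chromosome 5 of GRCm38 from 91027464 to 91035215 on the plus strand, and Ereg, Areg and Btc follow it within 375.5 kb. As the member that was called, and for comparison with a neighbour of the same orientation that was not, the bases just upstream of the first annotated start of Epgn (chr5:91027267-91027463) and of Areg (chr5:91139349-91139598) are shown, from RefSeq on GRCm38.p6, plus strand. Capitals mark matches, on either strand, to the TATA box TATAAA, the AP-1 site TGANTCA, the cAMP response element TGACGTCA and TCAAAG, the core of Tcf/Lef sites.

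Epgn: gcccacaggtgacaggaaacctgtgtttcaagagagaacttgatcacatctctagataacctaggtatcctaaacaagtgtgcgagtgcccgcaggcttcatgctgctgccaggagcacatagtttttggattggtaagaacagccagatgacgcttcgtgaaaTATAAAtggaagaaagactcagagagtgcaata

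Areg: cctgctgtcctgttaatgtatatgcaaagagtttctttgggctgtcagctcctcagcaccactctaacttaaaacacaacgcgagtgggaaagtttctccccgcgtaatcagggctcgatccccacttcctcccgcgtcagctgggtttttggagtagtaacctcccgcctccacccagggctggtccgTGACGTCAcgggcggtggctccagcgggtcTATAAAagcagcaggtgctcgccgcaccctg

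In both windows a TATA box stood at the usual distance from the start, 33 to 28 bases before the GENCODE start of Epgn and 31 to 26 bases before that of Areg. TATAAA occurs in 9.05% of all RefSeq start-site windows cut to their first 197 bases, and in 12.4% at the 250 bases used for Areg. The cut to 197 bases leaves out the bases nearest the RefSeq start, where a TATA box usually stands. The share of 9.05% is therefore no like background for the Epgn match. The Areg window also held TGACGTCA, 61 to 54 bases before the start, which 1.55% of windows of that length hold. The AP-1 and Tcf/Lef letters had no match in either window. They are present in 5.45% and 11.7% of windows cut to 197 bases as above and in 6.75% and 13.8% of the Areg length. The RefSeq start of Epgn lies 53 bases downstream of the GENCODE start, and the window was ended at the latter. The matches describe the letters only and were not tied to binding of any factor. A start-site window was matched for 7 of the 10 genes.

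The normalized value of Epgn was 153.6, 116.8, 120.3 and 140.6 across the controls and 324.6, 181.9, 205.7 and 215.4 across the p16 samples. All 4 p16 samples exceeded all 4 controls, and p16 replicate 1 was the highest of all. A change in the mix of sorted cells and a change of RNA per cell cannot be told apart in these samples. The means were 133 ± 17.4 (SD, n = 4) and 232 ± 63.4 (SD, n = 4), a 1.75-fold rise, and the lowest p16 value was 1.18 times the highest control value. The log2 fold change was 0.77 (standard error 0.16, 95% confidence interval 0.42 to 1.12, limma adjusted p = 0.0158). The exact two-sided permutation test gave p = 0.0286, the smallest that 4 samples against 4 allow, and of all tested genes the groups did not overlap at 9.83%, with p16 samples the higher at 4.19%. Epgn was counted from 91 to 406 reads per sample.

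The call of Epgn was not kept in every fit with fewer samples. Its adjusted p in limma stayed under 0.05 in 7 of the 8 fits without 1 sample. It was 0.0502 without control replicate 3 and 0.0465 without control replicate 2. With replicate 3 dropped from the controls and the p16 samples alike it was 0.0805 at an almost equal log2 fold change of 0.77. Fewer genes were called over all in that fit, and no other pair was left out. A part of replicate 3 itself was therefore not tested. Without p16 replicate 1, the sample with the highest Epgn and the fewest transgene reads among p16 samples, the log2 fold change was 0.60 and the adjusted p in limma 0.0397. On the recovered read counts, Epgn was also called by edgeR's quasi-likelihood test (adjusted p = 0.0195, 4.29% of genes called) and by DESeq2 (adjusted p = 0.00142, 4.38% of genes called).

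Markers of other skin cells moved in the same samples. Of 7 hair-follicle bulge genes 6 were called lower and 0 higher, and their summed value ran from 11449.7 to 15619.6 in controls and from 8375.5 to 8837 in p16 samples. Most of this sum was Krt15, with means of 10624 in controls and 7066 in p16 cells (limma adjusted p = 0.0463). Sums of this kind follow the most abundant genes of a list. Of 6 genes of the upper follicle and outer root sheath 4 were lower (15160.9 to 23665.7 against 11869.4 to 15253.3), of 6 sebaceous gland genes 4 (219.5 to 275.6 against 19.2 to 84.4) and of 6 melanocyte genes 2 (132.7 to 520.1 against 48.4 to 142.1), with 0 higher in these lists. None of 6 basal interfollicular genes was called (2 were higher before adjustment), and their summed value ran from 23438.1 to 40560.2 in controls and from 25298.9 to 28933.6 in p16 samples. Most of this sum was Krt5 and Krt14. Krt5 was 9045.9, 15451.6, 10080.8 and 17968.5 across the controls, highest where 1 read was worth most (0.742, 1.28, 0.835 and 1.53 normalized units). The range of the sum was therefore not read as basal-cell content. Among 6 genes of differentiated interfollicular cells 1 was called higher (Lor) and 2 lower (Ivl and Sbsn), with sums from 5972.8 to 8352.7 and from 6328.9 to 9777. Sums for 6 fibroblast genes (6.6 to 21.4 against 6.6 to 17.7), 4 T-cell genes (0 to 5.2 against 1.6 to 9.4), 6 Langerhans and myeloid genes (105.5 to 124.5 against 107.3 to 151.9) and 6 endothelial genes (6.1 to 8.2 against 7.8 to 12.8) overlapped between the groups. In these 4 lists 4, 2, 4 and 3 genes had values high enough to be tested, and none of those was called. The part of these cell types in the values of Epgn and the other 9 genes was not tested.

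The genes beside Epgn on chromosome 5 did not pass the threshold. Mthfd2l, the protein-coding gene upstream of it, had 35.5 ± 6.75 (SD, n = 4) in controls and 46.2 ± 5.43 (SD, n = 4) in p16 cells (log2 fold change 0.38, limma adjusted p = 0.330). Ereg, whose start lies 39.4 kb downstream of the end of Epgn, Areg and Btc are described below. Parm1, beyond Btc, had 63.7 ± 13.0 (SD, n = 4) and 53.5 ± 23.3 (SD, n = 4), with a limma adjusted p of 0.647. A difference between the response of Epgn and that of its neighbours was not tested.

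Ereg encodes epiregulin, which binds both EGFR and ErbB4. It was near the limit of detection, taken as 3 reads, with normalized values of 0.7, 0.0, 0.8 and 1.5 across the controls and 1.6, 5.5, 0.9 and 0.8 across the p16 samples. All but p16 replicate 2, with 7 reads, had 2 reads or fewer, and the groups overlapped. In all, 3 reads in controls stood against 11 in p16 samples, a ratio of 3.05 after scaling to library size with an exact 95% interval of 0.805 to 17.0 that covers counting error only. No difference was detectable at this depth (log2 fold change 0.73, 95% confidence interval -0.44 to 1.89, limma adjusted p = 0.581).

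Areg encodes amphiregulin, a ligand that keratinocytes use to stimulate themselves. Its normalized value was 7.4, 1.3, 12.5 and 4.6 across the controls and 4.0, 7.8, 6.2 and 1.6 across the p16 samples. Controls spanned the whole range of the p16 samples. The log2 fold change was -0.21 (95% confidence interval -1.35 to 0.94, limma adjusted p = 0.907), from at most 15 reads per sample, and its sign turned without control replicate 3 (0.17) or without p16 replicate 4 (0.14).

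Btc encodes betacellulin, which binds EGFR and ErbB4. It had normalized values of 8.2, 2.6, 9.2 and 3.1 across the controls and 5.6, 6.2, 3.5 and 4.1 across the p16 samples. The p16 values all lay within the control range. The log2 fold change was -0.09 (95% confidence interval -0.97 to 0.80, limma adjusted p = 0.955). It turned to 0.28 with replicate 3 dropped from both groups, and was also above 0 without control replicate 1, control replicate 3 or p16 replicate 3.

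Hbegf encodes the heparin-binding ligand, a precursor that is shed when keratinocytes are wounded. Its normalized values were 11.9, 6.4, 13.4 and 15.3 across the controls and 14.4, 14.1, 11.5 and 10.7 across the p16 samples. Control replicate 2 was the lowest sample, and the others lay together in both groups. The log2 fold change was 0.15 (95% confidence interval -0.48 to 0.79, limma adjusted p = 0.877), and -0.09 without control replicate 2.

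Tgfa encodes transforming growth factor alpha, a ligand whose loss in mice gives a wavy coat. Its normalized values were 33.4, 20.5, 51.8 and 24.4 across the controls and 32.8, 40.6, 43.4 and 27.1 across the p16 samples. Replicate 3 was the highest in both groups, and the groups overlapped. The log2 fold change was 0.21 (95% confidence interval -0.37 to 0.78, limma adjusted p = 0.789).

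The intervals of these 5 ligands are wide, and changes as large as that of Epgn (0.77) lie inside each of them. The coefficient of variation between control samples was 81.8% for Ereg, 73.5% for Areg, 59.0% for Btc, 42.9% for Tgfa and 32.6% for Hbegf, against 13.1% for Epgn. The summed normalized value of the 5 ligands other than Epgn was 61.6, 30.8, 87.7 and 48.9 across the controls and 58.4, 74.2, 65.5 and 44.3 across the p16 samples. The p16 sums all lay within the control range. With Epgn added, the sums ran from 147.6 to 215.2 in controls and from 256.1 to 383.0 in p16 samples, which includes the rise of Epgn itself. No p is given for sums over chosen genes.

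**Figure D2:**
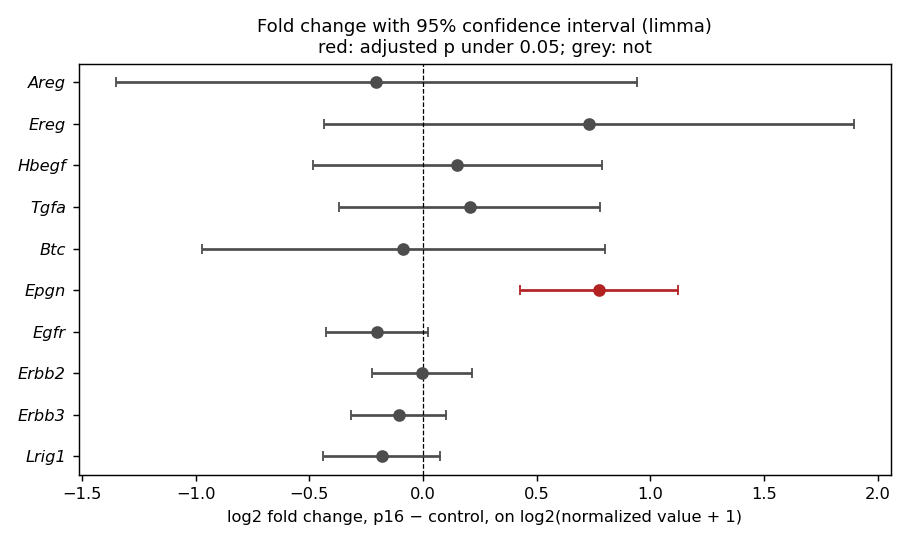
Log2 fold change of p16 against control (log2 of normalized value + 1) at each of the 10 genes, with 95% confidence intervals from limma over 4 samples a group. The interval of Epgn (red, adjusted p under 0.05) runs from 0.42 to 1.12, and those of the other 9 genes (grey) include 0.

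The receptors were measured with far less spread. Egfr encodes the receptor that all 6 ligands bind (ENSMUSG00000020122, chromosome 11, 16752203 to 16918158). Its normalized value was 238.9, 268.2, 264.8 and 252.1 across the controls and 234.3, 247.5, 219.0 and 191.6 across the p16 samples. Of the p16 samples 3 lay below every control, while p16 replicate 2 lay inside the control range. The means were 256 ± 13.3 (SD, n = 4) and 223 ± 24.0 (SD, n = 4). The difference did not pass the threshold (log2 fold change -0.20, 95% confidence interval -0.43 to 0.02, limma adjusted p = 0.374, exact two-sided permutation test p = 0.0571). An annotated antisense transcript, Egfros, lies within Egfr, and the use of strand in counting is not given in the sources used here.

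Erbb2 encodes the receptor without a ligand of its own (ENSMUSG00000062312, chromosome 11, 98412470 to 98437716). Its normalized value was 215.9, 204.1, 213.8 and 253.6 across the controls and 218.3, 209.2, 220.8 and 234.3 across the p16 samples. All p16 samples lay within the control range. The means were 222 ± 21.8 (SD, n = 4) and 221 ± 10.4 (SD, n = 4), with a log2 fold change of -0.004 (95% confidence interval -0.22 to 0.22, limma adjusted p = 0.991). On this scale the interval bounds a change in either direction at 14.3% lower and 16.1% higher. The last 9 bases of Erbb2 overlap Mien1 on the opposite strand.

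Erbb3 encodes the receptor with little kinase activity (ENSMUSG00000018166, chromosome 10, 128567523 to 128589652). It had normalized values of 260.4, 281.1, 280.6 and 265.8 across the controls and 257.5, 238.9, 234.1 and 281.2 across the p16 samples. Of the p16 samples 3 were below every control and replicate 4 was just above the highest control. The means were 272 ± 10.5 (SD, n = 4) and 253 ± 21.4 (SD, n = 4), with a log2 fold change of -0.11 (95% confidence interval -0.31 to 0.10, limma adjusted p = 0.665).

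Lrig1 encodes the ErbB inhibitor that also marks stem cells of the upper hair follicle (ENSMUSG00000030029, chromosome 6, 94604529 to 94700158). Its normalized value was 408.7, 436.3, 454.3 and 441.5 across the controls and 388.6, 470.0, 392.8 and 300.9 across the p16 samples. Here too 3 p16 samples were below every control, and replicate 2 was above all of them. The spread was wider in p16 cells, with means of 435 ± 19.2 (SD, n = 4) and 388 ± 69.1 (SD, n = 4). The log2 fold change was -0.18 (95% confidence interval -0.44 to 0.08, limma adjusted p = 0.514), and -0.07 without p16 replicate 4. The last 144 bases of the gene overlap the end of Slc25a26 on the opposite strand, whose mean normalized value was 27.

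The summed value of the 3 receptors ran from 715.2 to 771.5 in controls and from 673.9 to 710.1 in p16 samples. The gap between the groups was small, from 710.1 to 715.2, and nothing is read from a sum over chosen genes, when of single tested genes 9.83% did not overlap.

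The wider pathway was examined with 5 lists of 70 genes, of which 66 were tested. In these lists 5 genes rose and 0 fell, against 1.24% called higher and 2.61% called lower over all tested genes. Before adjustment 7 were higher and 6 lower, against 15.9% in either direction over all tested genes. Across the lists the median log2 fold change was 0.04. Of 6 other ErbB ligands and receptors 4 were tested and none was called (median -0.28, 0 higher and 1 lower before adjustment). Those with the highest values were Nrg2 (10.8 ± 3.57 in controls and 15.5 ± 3.64 in p16 cells, SD, n = 4 each, limma adjusted p = 0.446) and Nrg1 (8.75 ± 5.99 and 8.28 ± 2.67, SD, n = 4 each, limma adjusted p = 0.972), both neuregulins, which bind ErbB3 and ErbB4. The 1 gene of this list that was lower before adjustment was Nrg4, named after its values were seen. It had means of 7.275 in controls and 2.65 in p16 cells (log2 fold change -1.18, limma adjusted p = 0.0755). Its groups did not overlap, as at 9.83% of all tested genes. Erbb4 had no read in any sample. None of 12 receptor inhibitors and turnover genes was called (median 0.06, 0 higher and 1 lower before adjustment), and neither was any of 26 tested adaptors and kinases (median -0.01, 2 higher and 2 lower before adjustment). The most abundant were Ptpn1 and Lrig3 in the former, with limma adjusted p of 0.437 and 0.469, and Hras and Akt1 in the latter, with 0.637 and 0.892.

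Among 8 genes of ligand shedding (median 0.02) 1 rose, Timp3, which encodes an inhibitor of ADAM17 and of matrix proteases. Its normalized value was 646.1, 469.7, 323.2 and 759.3 across the controls and 1378.4, 980.6, 868.9 and 821.4 across the p16 samples. Every p16 sample lay above every control, and the log2 fold change was 0.92 (adjusted p = 0.0313 in limma), but the call held in only 4 of the 8 fits without 1 sample, was lost in DESeq2, and reached an adjusted p in limma of 0.113 without p16 replicate 1. Rhbdf1, which helps ADAM17 reach the cell surface, had 219 ± 18.4 and 234 ± 28.01 (SD, n = 4 each, limma adjusted p = 0.782).

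Among 16 ERK feedback and target genes (median 0.19) 4 rose and 0 fell, beside 1.24% called higher and 2.61% called lower over all tested genes, and 4 were higher and 2 lower before adjustment. Etv4 and Etv5 encode Ets-type transcription factors that are switched on downstream of receptor tyrosine kinases. Etv4 had normalized values of 65.3, 74.4, 58.5 and 50.4 across the controls and 178.3, 155.4, 175.6 and 119.2 across the p16 samples (log2 fold change 1.32, limma adjusted p = 0.000326). Etv5 went from 84.0 ± 7.47 to 164 ± 13.6 (SD, n = 4 each, log2 fold change 0.96, limma adjusted p = 0.000372). Spry1 and Spred2 encode inhibitors of the Ras-ERK pathway. Spry1 rose from 139 ± 30.3 to 285 ± 60.4 (SD, n = 4 each) and Spred2 from 205 ± 26.0 to 290 ± 5.08 (SD, n = 4 each), with adjusted p of 0.00285 and 0.0158 in limma. At all of these 4 genes every p16 sample lay above every control, as at 4.19% of all tested genes. Etv4, Etv5 and Spry1 were called in each of the 8 fits without 1 sample, and Spred2 in 5 of them. The call of Spred2 was lost without p16 replicate 1, control replicate 1 or control replicate 3. With replicate 3 dropped from both groups its adjusted p in limma was 0.109. The immediate early genes Egr1 and Fos, the most abundant of the list, were not called (limma adjusted p = 0.500 and 0.474). For Fos the p16 samples split into 660.4 and 576.2 in replicates 1 and 2 and 151.6 and 98.7 in replicates 3 and 4, on either side of the controls, which ran from 407.6 to 557.1. The 2 genes that were lower before adjustment were Spry4 and Dusp4, both with low values. Spry4 had means of 4.875 in controls and 2.075 in p16 cells (limma adjusted p = 0.288). Dusp4 had means of 4.325 and 1.85 (limma adjusted p = 0.272). Other receptors than those of the ErbB family also act through this pathway, and the activity of no receptor was measured in these samples.

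**Figure D3:**
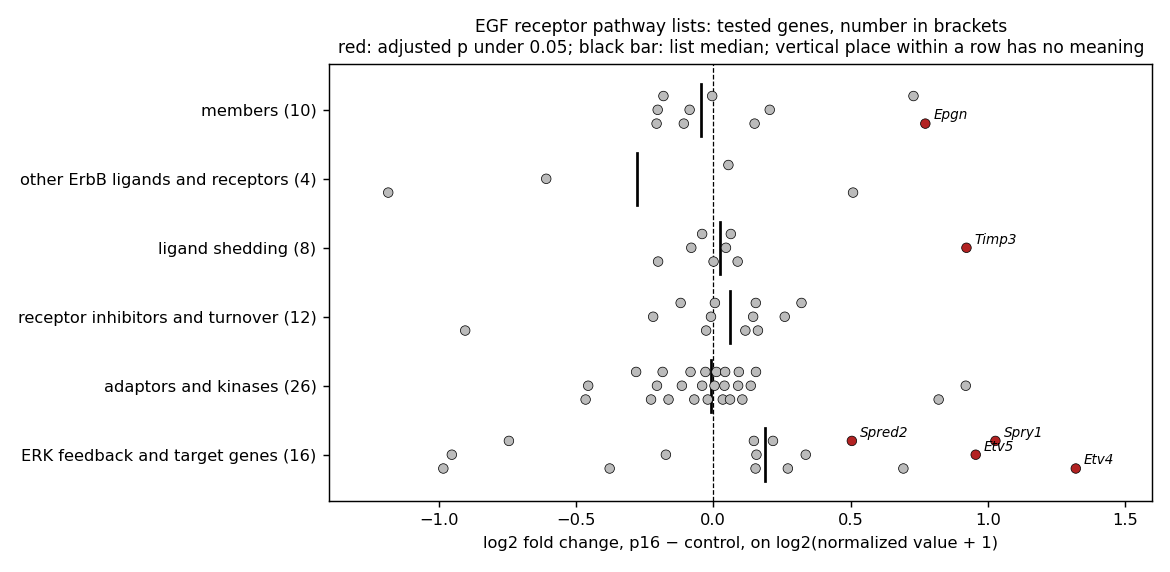
Log2 fold change of p16 against control on log2(normalized value + 1) for the tested genes of the 10 members and the 5 pathway lists, with list medians as black bars and called genes in red (limma adjusted p under 0.05). All 6 called genes, Epgn, Timp3, Spred2, Etv5, Spry1 and Etv4, lie on the higher side, between 0.50 and 1.32.

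**Figure D4:**
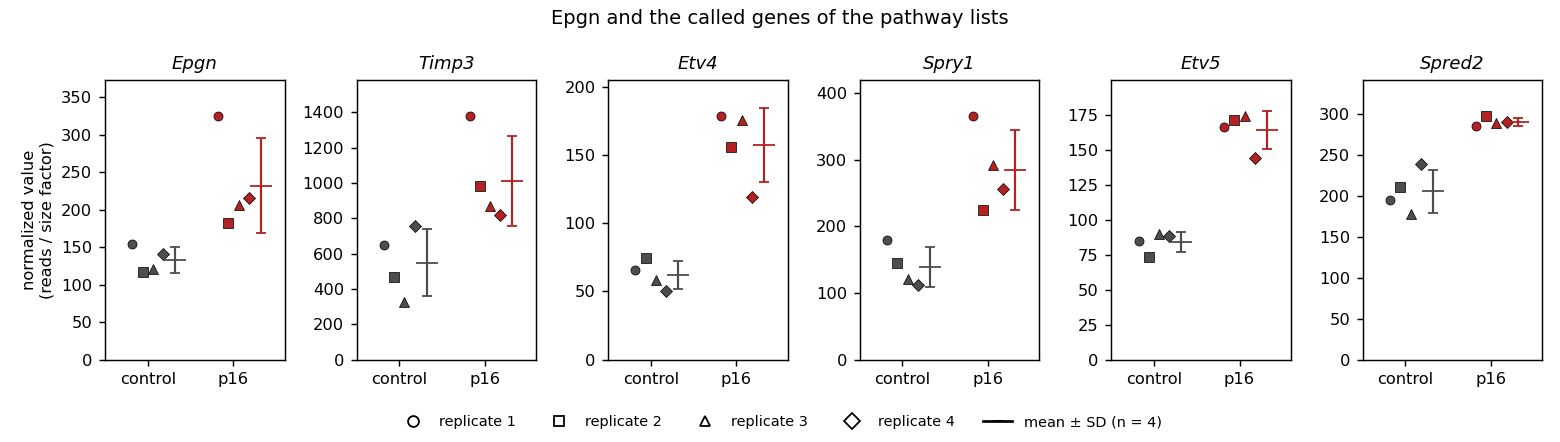
Normalized values of Epgn and of the 5 called genes of the pathway lists in every sample, drawn as in the plot of the 10 genes with bars for mean ± SD (n = 4). The 2 groups do not overlap at any of the 6 genes, and p16 replicate 1 is the highest sample for Epgn, Timp3, Etv4 and Spry1.

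Among the 9405 genes whose mean normalized value was 20 or more, those whose log2 values followed Epgn most closely over the 8 samples were Dbp (Pearson r = 0.99), St5 (0.98) and Gyltl1b (0.97). These correlations describe libraries that share the difference between the groups and were given no test. Dbp, a transcription factor of the circadian clock output, had 327 ± 28.9 in controls and 420 ± 58.1 in p16 cells (SD, n = 4 each) and was not called (limma adjusted p = 0.104). St5 rose from 146 ± 10.03 to 212 ± 30.3 (SD, n = 4 each) and Gyltl1b from 58.6 ± 5.20 to 92.5 ± 13.4 (SD, n = 4 each), both with a limma adjusted p of 0.0220.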

How the data were processed

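The members and gene lists were chosen with earlier results of these data known. Per the methods, the authors followed CEL-Seq2, adapted, for 3′-end libraries, while the labels of replicate 3 word an Illumina RNA sequencing protocol. Per the labels and methods, they used Cutadapt for trimming and TopHat2 for alignment to GRCm38, and HTSeq and DESeq2 are named in the processing notes. The deposited signal values are reads per gene over a sample-wise size factor, rounded to 1 decimal. Columns of group means and of the authors' own fold changes, test statistics and p-values were not used. The annotation version and the use of molecular identifiers are not given in the sources used here. Another 13 samples, labelled series II, were not analysed here.

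Whole reads were recovered for 100% of values (within rounding of a whole multiple of the value of 1 read). The 12782 entries with a mean value of at least 1 entered a limma 3.58.1 fit in R 4.3.3 (moderated with a mean trend) on log2(normalized value + 1), with Benjamini-Hochberg adjustment over all of them. Single genes were compared with an exact two-sided permutation test of mean normalized values. Alternatives included edgeR 4.0.16 and DESeq2 1.42.0 on the recovered reads. The scripts were tested on simulated data. Named genes were all 10 members, called genes and the 2 most abundant genes of each pathway list, overlapping or neighbouring genes, and the 3 genes most like each called member. Coordinates are from GENCODE M21.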

Additional observations from a re-analysis of the deposited data

Results flagged for a closer look

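Among the values of the members and of the named pathway genes, examined in 48 groups of 4 samples, 1 sample stood apart from its group by Dixon's criterion, where chance alone gives about 1 in 20. It was Ereg in p16 replicate 2, with a normalized value of 5.5 from 7 reads, and its gap to the next sample was 0.83 of the range of the group.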

How the results depend on the processing

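The samples of the 2 groups that share a replicate number deviated together only weakly over all tested genes (r between 0.004 and 0.083). Of the 4 controls 2 were closest to the p16 sample of their own number. The numbers were not taken to pair the samples, though weak correlations cannot show that they are unpaired. The methods give 3 independent experiments for the 4 replicates, without saying which samples belong to which. With the replicate block, 216 genes were higher and 392 lower, Epgn was called (limma adjusted p = 0.0017), and 1 pathway gene was lower (Pik3r1, named after its values were seen). Over all genes 159 were higher and 334 lower, with 69 to 196 and 177 to 343 when a sample was left out (fewest higher without p16 replicate 1, fewest lower without control replicate 1), 66 and 157 without the pair of control and p16 replicate 3, and 897 and 1141 at an unadjusted p under 0.05. Members called higher numbered 0 to 1 when a sample was left out, and 0 without that pair, where the count over all genes was also lower. The part of the smaller number of samples in this was not tested. Pathway genes called higher numbered 3 to 5 when a sample was left out and 3 without that pair, and 6 were lower at an unadjusted p under 0.05. The genes were not always the same. Without control replicate 2 Timp3 was not called and Gab2, an adaptor named after its values were seen, was. Epgn kept its direction in 16 of 16 other settings (log2 fold change 0.60 to 0.88). Only members that were not called changed sign: Areg to 0.027 and Btc to 0.28 without that pair, Erbb2 to 0.032 with total count scaling, and, over the fits without 1 sample, Areg ran from -0.68 to 0.17, Hbegf from -0.091 to 0.29, Btc from -0.34 to 0.16 and Erbb2 from -0.042 to 0.062. The cause was not tested. Areg, Btc and Ereg had too few reads for edgeR's filter, and Ereg fell under the filter on low values without p16 replicate 2 and at a mean value of at least 5. The 5 ligands other than Epgn had at most 62 reads in a sample, and how far depth or the spread between samples sets their intervals was not tested.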
